A study of Rattus norvegicus with 11 samples.

Results

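The 4 genes described here encode the receptors for the gut incretin hormone GIP (Gipr), for glucagon-like peptides 1 and 2 (Glp1r and Glp2r) and for glucagon (Gcgr). They were taken by symbol from a table of 25275 genes measured in retroperitoneal white fat of 11 rats, and each symbol stood on 1 row. They were chosen by their measured counts and CPM in all 11 libraries, so their levels and their change with FSH are described and not tested. The tested rats (degarelix plus FSH, n = 5) had osmotic pumps that delivered follicle-stimulating hormone (FSH) at 6 µg per kg per day. The comparison rats (degarelix only, n = 6) had pumps with vehicle. All 11 were female wild-type Wistar rats that started at 10 weeks of age, ate a western diet for 6 weeks, lost their ovaries by surgery and were given degarelix. Degarelix blocks the receptor for gonadotropin-releasing hormone and so lowers the pituitary's own FSH and luteinizing hormone. Both groups had restricted food for 12 days and free food for 7 days, were fasted for 4 h and gave tissue at 19 weeks. The groups therefore differ by FSH in animals without ovaries, and 1 mRNA library was made per rat. No rat with ovaries or without degarelix was analysed here.

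GIP is released by K cells of the gut, and GLP-1 and GLP-2 by L cells, which cut them from the glucagon precursor encoded by Gcg. Islet alpha cells cut glucagon from the same precursor. All 4 receptors belong to the class B1 family of G protein-coupled receptors and act mainly through the stimulatory G protein, adenylyl cyclase, cyclic AMP (cAMP) and protein kinase A. In fat cells, cAMP drives lipolysis, and glucagon does so in isolated rat adipocytes. GIP is also known to favour lipoprotein lipase activity and lipid storage when insulin is high.

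Gipr was read in every library and stood about 2-fold higher with FSH in this set, without overlap between the groups. Of all tested genes, 2.54% lay higher with FSH without overlap. Gcgr was read at a lower count in every library and its groups overlapped. Glp1r had no count in any library and Glp2r had 2 counts in all. Of the tested genes of the hormone, receptor, cAMP and fat tissue process lists, 5 of 88 passed the threshold with FSH. That is 5.68%, against 2.27% of all tested genes, and the lists were chosen with earlier results of these data known. Gpihbp1 and Rapgef3 rose, and Adora1, Ptger3 and Prkar2a fell. Apart from that of Gpihbp1, each of these calls was lost when certain single libraries were left out.

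Library totals lay between 13163021 and 19837706 counts with FSH and between 16452117 and 23694602 with degarelix only. Levels are CPM, the usual depth-scaled counts, on library totals scaled by TMM, and no length was available, so levels are compared between rats and not between genes. FSH replicate 3 stood apart from the others. It had the lowest total and lay at 44.2 on the first principal component (22.7% of the variance), against 2.58 to 12.6 for the other FSH libraries. It held 64.4 CPM of Sox10, a transcription factor of Schwann cells, against 2.10 to 4.80 CPM in the other FSH libraries. The degarelix only libraries held 1.94 to 3.96 CPM of Sox10. On that component they ran from -28.1 in replicate 1 to 4.51 in replicate 4, which lay among the FSH libraries. The fat cell genes Adipoq and Plin1 averaged 11379 ± 1807 and 4306 ± 504 CPM with FSH, against 11162 ± 863 and 4408 ± 417 CPM with degarelix only (SD, n = 5 and n = 6). They are the defining markers of the adipocyte list, of whose 8 genes 2 were higher and 2 lower at an unadjusted p under 0.05. The shares of all tested genes were 11.8% and 10.8%. Fabp4 and Cfd were higher (log2 change 0.30 and 0.65), and Lep and Pparg were lower (-0.62 and -0.38). Over all genes, edgeR's quasi-likelihood test with Benjamini-Hochberg adjustment called 292 of 12846 tested genes (2.27%), 155 higher (1.21%) and 137 lower (1.07%), at an adjusted p under 0.05. Leaving out any 1 of the 11 libraries moved that count by over 1.5 times, from 30 without FSH replicate 2 to 551 without FSH replicate 4. It was 92 without FSH replicate 3 and 532 without degarelix only replicate 4. The labels call the rats biological replicates, and the counts of every pair within a group differed by more than sampling noise.

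Gipr (ENSRNOG00000015860) had 557, 1117, 444, 736 and 1015 counts in FSH replicates 1 to 5, and 240 to 648 counts in the degarelix only libraries. As CPM, the FSH replicates held 33.5, 68.9, 33.0, 43.3 and 49.2. The degarelix only libraries held 14.9 CPM at the lowest, 24.98 at the median and 27.4 at the highest. Every FSH library lay above every degarelix only library, and the lowest FSH value was 1.20 times the highest degarelix only value. The means were 45.6 ± 14.7 CPM with FSH and 22.5 ± 5.42 CPM with degarelix only (SD, n = 5 and n = 6). The log2 change was 1.02 ± 0.22 (SE), a fold of 2.02. Among the tested genes, 2.54% lay higher and 1.8% lower with FSH without overlap, and 0.794% had a log2 change of at least 1. These are the values by which Gipr was chosen, and nothing is read from them.

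With 1 library left out the log2 change of Gipr lay between 0.82 and 1.11, lowest without FSH replicate 2, which had the highest level, and 1.11 without FSH replicate 3. With the 3 other scalings it lay between 1.01 and 1.08. The spread between rats was wider than counting error. Within the FSH group the coefficient of variation was 32.3%, where counting alone gives 3.82%, and within the degarelix only group it was 24.1%, where counting alone gives 5.02%. The biological coefficient of variation that edgeR gave Gipr was 0.254, above the 0.154 of the trend for genes at its level.

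**Figure D1:**
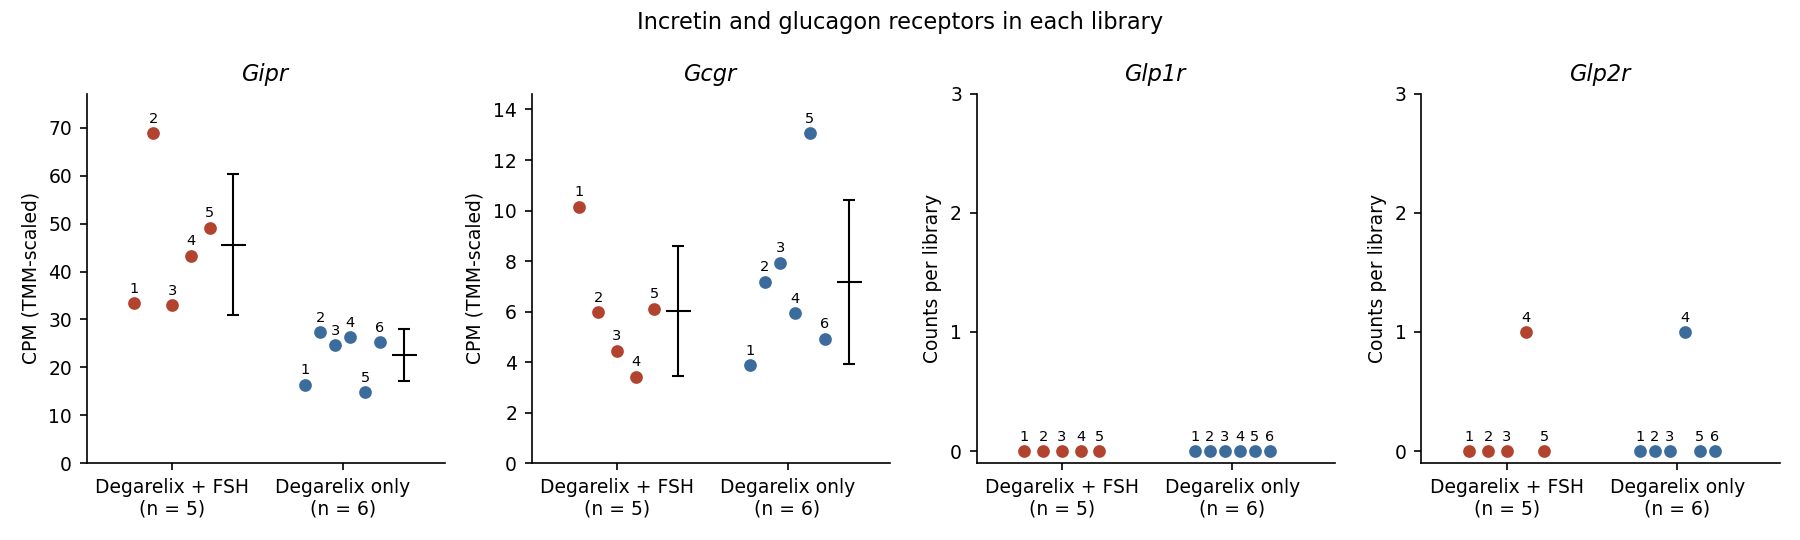
Levels of the 4 receptors in each library: CPM for Gipr and Gcgr and raw counts for Glp1r and Glp2r. Points are rats labelled by replicate number, and bars beside the CPM points are mean ± SD. The Gipr points with FSH (33.0 to 68.9 CPM) all lie above those with degarelix only (14.9 to 27.4 CPM), while the Gcgr points overlap.

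In a bulk sample, more cells of a type and more RNA per cell cannot be told apart, so marker genes of the cells in fat were set beside Gipr. Endothelial markers summed to 1419 to 2252 CPM with FSH and to 1239 to 1675 CPM with degarelix only. Of these, 1 of 7 passed the threshold (Tek, higher), 5 were higher at an unadjusted p under 0.05, and all 7 estimates were above 0. Smooth muscle markers summed to 633 to 944 CPM with FSH and to 525.7 to 726 CPM with degarelix only. Of these, 1 of 6 passed (Smtn, higher), 2 were higher at an unadjusted p under 0.05, and all 6 estimates were above 0. Over all tested genes, 1.21% were called higher and 11.8% were higher at an unadjusted p under 0.05. Sums overlapped between the groups for both lists. Pericyte markers summed to 708 to 900 CPM with FSH and to 492.7 to 899 CPM with degarelix only, and none of 7 passed. Adipocyte markers summed to 41222 to 55648 CPM with FSH and to 38684 to 48888 CPM with degarelix only, and none of 8 passed. Mesothelial markers summed to 15.1 to 26.4 CPM with FSH and to 15.2 to 25.9 CPM with degarelix only, and none of the 3 tested passed. Gipr was correlated with the summed levels over the 11 libraries after each group's mean was subtracted. The Pearson correlation was -0.01 for endothelial, -0.65 for smooth muscle, -0.21 for pericyte and 0.22 for adipocyte markers (Spearman 0.16, -0.46, -0.20 and 0.31). It was -0.51 for fat progenitor, 0.50 for macrophage and 0.47 for T and NK cell markers (Spearman -0.55, 0.27 and 0.30). None of the tested genes of the fat progenitor, macrophage and T and NK cell lists passed the threshold. These correlations are descriptions over rats that share total-count scaling, and the part of these cells in the Gipr difference was not tested.

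The genes beside Gipr on the chromosome gave estimates near 0 that did not pass the threshold. In RefSeq's GRCr8 annotation, the next gene on one side is Snrpd2, which encodes a splicing core protein, and the interval of Eml2, which encodes a microtubule-associated protein, overlaps the end of that of Gipr on the other side. The strand setting of the authors' counting is not given, so reads where genes overlap could be shared. Eml2 held 41.3 to 54.1 CPM with FSH and 42.7 to 51.6 CPM with degarelix only (log2 change -0.05 ± 0.08, edgeR adjusted p = 0.759). Snrpd2 held 46.3 to 58.6 CPM with FSH and 45.3 to 54.5 CPM with degarelix only (log2 change 0.07 ± 0.07, edgeR adjusted p = 0.595).

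Gcgr (ENSRNOG00000036692), the receptor through which glucagon raises glucose output in liver, had 169, 97, 60, 58 and 126 counts in FSH replicates 1 to 5 and 72 to 211 counts in the degarelix only libraries. As CPM, the FSH replicates held 10.1, 5.98, 4.46, 3.41 and 6.11. The degarelix only libraries held 3.88 CPM at the lowest, 6.56 at the median and 13.1 at the highest. The groups overlapped over most of their range. The means were 6.02 ± 2.56 CPM with FSH and 7.15 ± 3.25 CPM with degarelix only (SD, n = 5 and n = 6), with a log2 change of -0.24 ± 0.33 (SE). That value turned to 0.01 without degarelix only replicate 5, which held the highest level, and was -0.51 without FSH replicate 1, the highest of its group. Without FSH replicate 3 it was -0.15, without FSH replicate 4 -0.09, and without degarelix only replicate 1 -0.37.

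The coefficient of variation of Gcgr was 42.6% with FSH and 45.4% with degarelix only, where counting alone gives 10.8% and 9.11%. After group means were subtracted, its Pearson correlation over the 11 libraries was 0.74 with the summed endothelial markers and -0.67 with the summed adipocyte markers (Spearman 0.81 and -0.76). It was -0.65 with the summed adrenal cortex markers, of which Cyp11b2 and Hsd3b2 had no count in any library. That sum holds only Cyp11a1, Star and Mc2r, and Mc2r is also on the list of receptors that act on lipolysis. These were the largest in size of its correlations with the marker lists compared. The others ran from -0.46 (Schwann cell and nerve) to 0.29 (exocrine pancreas). They are descriptions over rats that share total-count scaling, and which cells hold Gcgr was not tested. Hepatocytes and kidney are known sites of Gcgr. The kidney markers Umod, Slc34a1, Aqp2 and Kap had no count in any library, and the kidney list summed to 0.436 to 1.88 CPM with FSH and to 0.216 to 2.39 CPM with degarelix only. Of the hepatocyte markers, albumin (Alb) averaged 1007 CPM over all libraries and the other 5 between 2.46 and 8.97 CPM, and the correlation of Gcgr with their sum was -0.18.

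RefSeq lists 2 starts for Gcgr, 793 bases apart, and counts per gene do not tell which was used. An annotated lncRNA overlaps the Gcgr interval in the same assembly and is not among the rows analysed here, so shared reads cannot be told apart. The next gene before Gcgr, Slc25a10, held 345 to 634 CPM with FSH and 346 to 1232 CPM with degarelix only. Its log2 change was -0.58 ± 0.28 (edgeR adjusted p = 0.256). Whether reads of Slc25a10 reached the Gcgr count was not tested. The windows from 250 bases before to 50 after each start (RefSeq, GRCr8) are shown for the receptor with counts in every library, with those of the receptors that had nearly none. Of the 4 receptors, 3 had an entry, and Gipr had none. Capitals mark the GC box GGGCGG on either strand, some of which share bases. The windows are, in order, the first Gcgr start (chr10:106306553-106306852, plus strand), the second Gcgr start (chr10:106307346-106307645, plus strand), Glp1r (chr20:8973143-8973442, plus strand) and Glp2r (chr10:52964912-52965211, minus strand).
Gcgr, first start: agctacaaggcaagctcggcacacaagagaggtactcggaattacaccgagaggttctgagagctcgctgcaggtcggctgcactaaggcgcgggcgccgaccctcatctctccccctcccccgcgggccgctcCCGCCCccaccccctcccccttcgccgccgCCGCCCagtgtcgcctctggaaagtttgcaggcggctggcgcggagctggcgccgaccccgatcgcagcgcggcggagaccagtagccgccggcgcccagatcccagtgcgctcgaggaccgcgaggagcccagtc
Gcgr, second start: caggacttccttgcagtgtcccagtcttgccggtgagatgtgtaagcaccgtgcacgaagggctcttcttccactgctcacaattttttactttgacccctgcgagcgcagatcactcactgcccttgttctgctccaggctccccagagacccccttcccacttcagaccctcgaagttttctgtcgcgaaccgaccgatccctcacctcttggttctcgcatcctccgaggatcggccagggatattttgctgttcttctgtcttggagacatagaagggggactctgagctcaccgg
Glp1r: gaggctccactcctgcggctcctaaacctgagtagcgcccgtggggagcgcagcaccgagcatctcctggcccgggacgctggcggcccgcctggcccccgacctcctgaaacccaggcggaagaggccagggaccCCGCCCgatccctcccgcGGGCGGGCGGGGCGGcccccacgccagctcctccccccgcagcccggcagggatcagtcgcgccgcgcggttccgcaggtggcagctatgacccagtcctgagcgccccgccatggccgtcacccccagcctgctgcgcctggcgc
Glp2r: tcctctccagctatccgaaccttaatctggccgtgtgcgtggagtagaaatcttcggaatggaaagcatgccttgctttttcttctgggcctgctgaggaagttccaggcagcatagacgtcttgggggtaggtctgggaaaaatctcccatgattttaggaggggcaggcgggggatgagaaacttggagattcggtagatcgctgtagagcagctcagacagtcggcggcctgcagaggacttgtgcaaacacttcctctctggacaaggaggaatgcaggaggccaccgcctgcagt
The first Gcgr window had 71.0% G and C, 35 CpG pairs and 2 GC boxes, and the Glp1r window had 76.0%, 32 CpG pairs and 4 GC boxes. The second Gcgr window had 55.7% and 14 CpG pairs, and the Glp2r window 54.3% and 11, neither with a GC box. Over 33469 windows of this length the medians were 51.7% and 7 CpG pairs, and 33.1% held a GC box. Neither the cAMP response element TGACGTCA (held by 1.83% of windows) nor the TATA box TATAAA (14.2%) was in these 4 windows, on either strand. A receptor with counts in every library and one without any thus both have windows rich in CpG pairs and GC boxes, and a match is only a description of letters.

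Glp1r (ENSRNOG00000001152), the target of GLP-1 and of the GLP-1 drugs, had 0 counts in all 11 libraries. A count of 0 allows up to 0.0367 CPM over the 81850467 counts of the FSH libraries and up to 0.0251 CPM over the 119685217 counts of the degarelix only libraries (3 counts of the total). Glp2r (ENSRNOG00000003683), which serves growth of the gut lining, had 1 count in FSH replicate 4 and 1 in degarelix only replicate 4. The exact 95% Poisson interval over all libraries ran from 0.0012 to 0.0358 CPM. These limits cover counting error only. A change with FSH in either gene was not detectable at this depth, and no fold is given.

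The ratio of Gipr counts to Gcgr counts within a library depends on neither the total nor the scaling. It was 3.30, 11.5, 7.40, 12.7 and 8.06 in FSH replicates 1 to 5. With degarelix only it was 1.14 at the lowest, 4.02 at the median and 5.14 at the highest. FSH replicate 1 lay within the degarelix only range and the other 4 FSH libraries lay above it. With group means subtracted, the Pearson correlation between Gipr and Gcgr over the 11 libraries was -0.17 (Spearman -0.05).

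**Figure D2:**
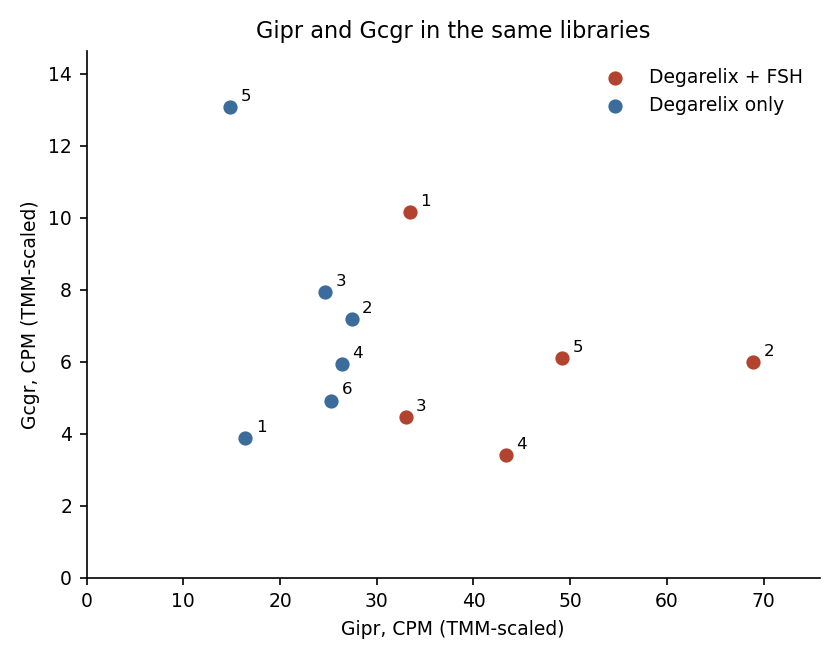
Gcgr (vertical axis, CPM) against Gipr (horizontal axis, CPM) in the same libraries, each point a rat labelled by replicate number. The groups part along the Gipr axis and overlap along the Gcgr axis, where degarelix only replicate 5 is highest at 13.1 CPM.

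**Figure D3:**
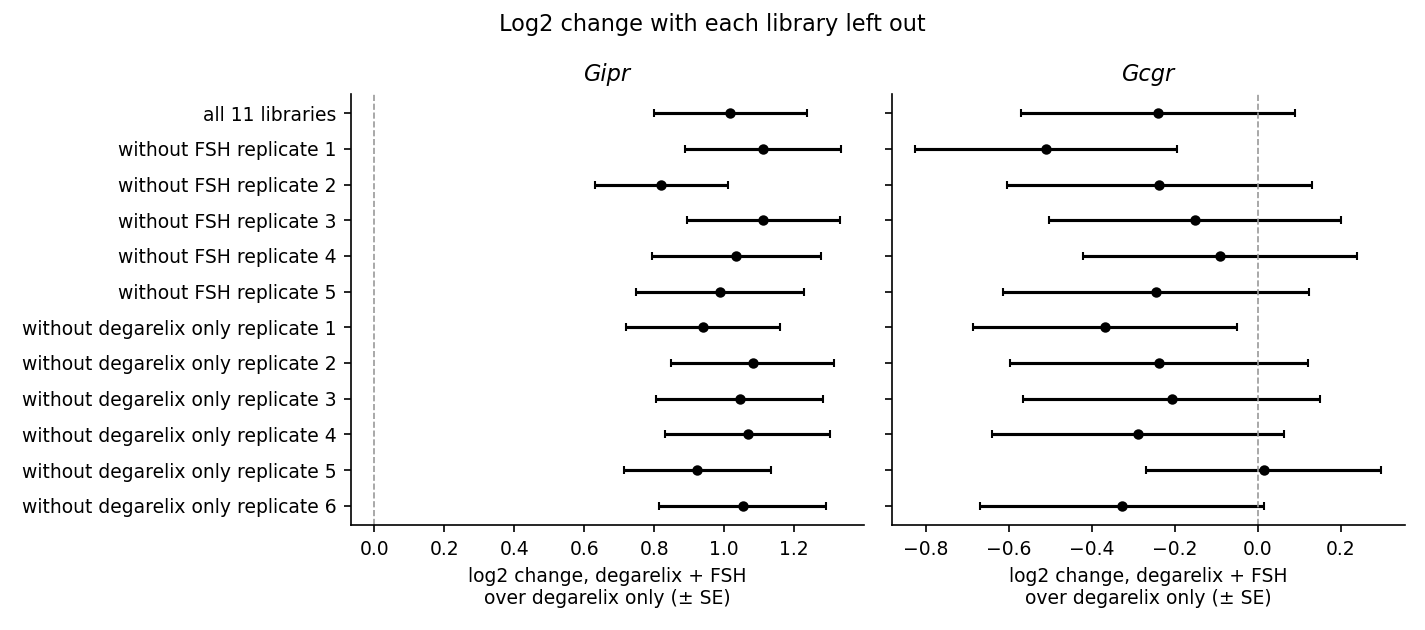
Log2 change of Gipr and Gcgr (degarelix plus FSH over degarelix only, ± SE) with all libraries and with each left out in turn. Gipr stays between 0.82 and 1.11, and Gcgr runs from -0.51 to 0.01.

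The genes whose levels went with those of Gipr between rats were found over 12027 tested genes, by Pearson correlation of log2 CPM after subtracting each group's mean (11 libraries). The highest were Rock1, a kinase downstream of the GTPase RhoA (0.96), Tsen15, a subunit of the tRNA splicing endonuclease (0.93), Strn3 (0.92), the phosphoinositide phosphatase Sacm1l (0.91) and Carf (0.89). The lowest were Atp13a2, a lysosomal polyamine transporter (-0.93), the vasopressin receptor Avpr1a (-0.91) and the mitochondrial phenylalanyl-tRNA synthetase Fars2 (-0.90). None of the 8 passed the threshold with FSH. The log2 change of Rock1 was -0.01 (edgeR adjusted p = 0.963). For Gcgr the highest were Sh3d21 (0.90), Nrm (0.90), Dock9 (0.89), the iron-siderophore binding protein Lcn2 (0.89) and Pced1a (0.89), and the lowest were Spop (-0.93), Rragc (-0.92) and Hnrnpl (-0.91). Of these, Dock9, an activator of the GTPase Cdc42, was past the threshold with FSH (log2 change 0.40, edgeR adjusted p = 0.0454). Picked as extremes of many genes over few rats, these lists changed with single libraries. With 1 library left out, 2 to 6 of the 8 genes stayed for Gipr and 0 to 6 for Gcgr.

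Transcripts of the hormones for these receptors were not detected in this fat. Gcg and Gip had no count in any library, nor had the prohormone convertases Pcsk1 and Pcsk2 that cut their precursors. The islet markers Ins1 and Iapp were likewise at 0, and the islet list summed to at most 0.775 CPM with FSH and 0.647 CPM with degarelix only. Dpp4, the protease that inactivates GIP and GLP-1, held 4.32 ± 2.14 CPM with FSH and 3.23 ± 1.01 CPM with degarelix only (SD, n = 5 and n = 6). It was the only 1 of the 9 hormone and processing genes with enough counts to be tested, and did not pass. Vip and Adcyap1, neuropeptide hormones of related receptors, had means under 0.3 CPM in both groups.

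Of 11 other class B1 receptors, 7 had enough counts to be tested, and 0 of 7 passed the threshold. Of the 7, 1 had an unadjusted p under 0.05, and DESeq2 also called 1. Over all tested genes, 2.27% passed by edgeR and 22.6% had an unadjusted p under 0.05. Crhr2, the receptor for urocortins, held 31.3, 35.1, 34.7, 53.3 and 30.1 CPM in FSH replicates 1 to 5. The degarelix only values were 12.6 CPM at the lowest, 20.6 at the median and 32.4 at the highest. The FSH libraries lay high within that range or above it, with a log2 change of 0.74 ± 0.25 that did not pass (edgeR adjusted p = 0.123). By DESeq2 its adjusted p was 0.0451. The parathyroid hormone receptor Pth1r held 49.5 ± 15.1 CPM with FSH and 60.7 ± 19.6 CPM with degarelix only. Calcrl, which with a RAMP protein forms the adrenomedullin and CGRP receptors, held 32.7 ± 7.77 CPM with FSH and 34.2 ± 3.83 CPM with degarelix only. The PACAP receptor Adcyap1r1 held 17.6 ± 7.80 CPM with FSH and 11.3 ± 4.63 CPM with degarelix only. Crhr1 and Pth2r had no count in any library.

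**Figure D4:**
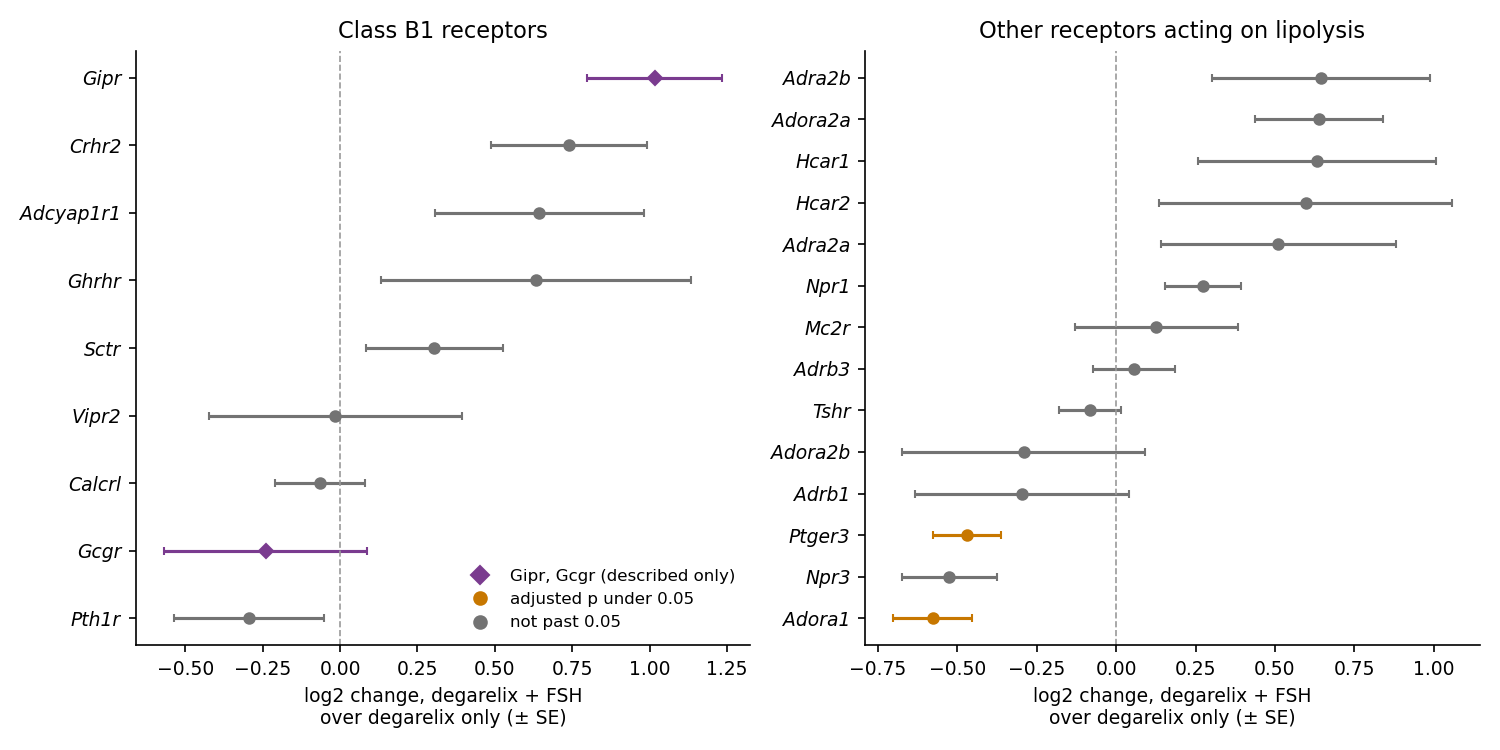
Log2 change with FSH (degarelix plus FSH over degarelix only, ± SE) of class B1 receptors and of 14 of the 15 tested other receptors that act on lipolysis. Diamonds mark Gipr and Gcgr, which are described only, and coloured circles mark Adora1 and Ptger3, past an adjusted p of 0.05.

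RAMP proteins, G proteins and the desensitising kinases and arrestins gave 0 of 14 tested members past the threshold, where 2.27% of all tested genes passed. At an unadjusted p under 0.05, 1 was higher and 2 lower, against 11.8% and 10.8% of all tested genes, and DESeq2 called 0. Ramp1, a RAMP best known with Calcrl, held 284 ± 63.4 CPM with FSH and 280.2 ± 21.8 CPM with degarelix only. Ramp2, which is known to pair with Gcgr in cell systems, held 143 ± 25.7 CPM with FSH and 112 ± 17.4 CPM with degarelix only (log2 change 0.36 ± 0.14, edgeR adjusted p = 0.161). The beta subunits Gnb1 and Gnb2 held 198 ± 15.4 and 281 ± 19.7 CPM with FSH, against 209 ± 17.1 and 272 ± 11.3 CPM with degarelix only. Gna11 (log2 change -0.22 ± 0.10, edgeR adjusted p = 0.218) and the sorting nexin Snx27 (-0.16 ± 0.07, edgeR adjusted p = 0.181) did not pass. Gnas, which encodes the stimulatory alpha subunit, was not matched to a row used here.

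In the cAMP signal chain, 2 of 21 tested members passed the threshold, 1 in each direction, against 1.21% of all tested genes higher and 1.07% lower. At an unadjusted p under 0.05, 2 were higher and 6 lower, against 11.8% and 10.8% of all tested genes. Rapgef3 (ENSRNOG00000059961), the exchange factor Epac1 that cAMP activates beside protein kinase A, held 143, 132, 136, 131 and 143 CPM in FSH replicates 1 to 5. In the degarelix only libraries it held 77.8 CPM at the lowest, 104 at the median and 113 at the highest. The groups did not overlap, and Rapgef3 rose by a log2 change of 0.47 ± 0.10 (edgeR adjusted p = 0.0343). Prkar2a (ENSRNOG00000020284), a regulatory subunit that holds protein kinase A inactive, held 6.37, 7.59, 6.91, 8.95 and 7.66 CPM in FSH replicates 1 to 5. With degarelix only it held 9.13 CPM at the lowest, 11.4 at the median and 15.0 at the highest. It fell without overlap, with a log2 change of -0.62 ± 0.13 (edgeR adjusted p = 0.0372). Both calls ended without FSH replicates 1, 2, 3 or 5 or degarelix only replicates 1, 5 or 6, with an adjusted p up to 0.085 for Rapgef3 and 0.0932 for Prkar2a.

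Other subunits of protein kinase A had lower estimates that did not pass. Prkar2b, the regulatory subunit that dominates in fat cells, held 874 ± 90.6 CPM with FSH and 1080 ± 138 CPM with degarelix only (log2 change -0.30 ± 0.10, edgeR adjusted p = 0.124). Prkar1a (-0.20 ± 0.09, edgeR adjusted p = 0.203) and the catalytic subunit Prkaca (-0.21 ± 0.08, edgeR adjusted p = 0.139; 0.0494 without degarelix only replicate 4) did not pass either. Of the adenylyl cyclases, Adcy4 had a log2 change of 0.40 ± 0.11 (edgeR adjusted p = 0.0681; 0.0131 without degarelix only replicate 4) and Adcy5 of -0.46 ± 0.19 (edgeR adjusted p = 0.182). Adcy6 held 409 ± 40.3 CPM with FSH and 440 ± 54.5 CPM with degarelix only, and the phosphodiesterase Pde3b, through which insulin lowers cAMP, 117 ± 28.1 CPM with FSH and 123 ± 19.3 CPM with degarelix only. Creb1, a transcription factor that protein kinase A activates, had a log2 change of -0.36 ± 0.15 (edgeR adjusted p = 0.192).

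Among genes that cAMP is known to induce, 0 of 10 tested passed (1 at an unadjusted p under 0.05). Over all tested genes the shares were 2.27% and 22.6%. While 9 of 10 estimates were above 0, several were smaller than their SE, such as Fos (0.35 ± 0.79), Junb (0.06 ± 0.24) and Dusp1 (0.06 ± 0.23). The 1 below 0 was Crem (log2 change -0.21 ± 0.10, edgeR adjusted p = 0.239). The median log2 change of the 10 was 0.38, against 0.01 over all tested genes. The 10 are not separate observations. Fos and Junb were both highest of their groups in FSH replicate 2 (41.0 and 41.9 CPM) and degarelix only replicate 3 (62.2 and 48.7 CPM). The list was chosen with earlier results of these data known, so nothing is read from its median or directions. The largest count in the list was that of Pck1, an enzyme of glyceroneogenesis, at 3758 ± 1384 CPM with FSH and 2435 ± 1856 CPM with degarelix only. Sik1, a kinase that holds back CREB coactivators, held 55.1, 91.8, 61.6, 60.8 and 62.3 CPM in FSH replicates 1 to 5. The degarelix only values were 26.1 CPM at the lowest, 47.6 at the median and 52.2 at the highest. The groups did not overlap, but the log2 change of 0.62 ± 0.19 did not pass (edgeR adjusted p = 0.0977; 0.0266 by DESeq2). Dusp1 and Per1 held 127 ± 27.1 and 98.2 ± 3.92 CPM with FSH, against 121 ± 38.3 and 91.3 ± 26.5 CPM with degarelix only.

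Of the other receptors that speed or slow lipolysis, 2 of 15 tested passed and both were lower with FSH, where 1.07% of all tested genes were called lower. At an unadjusted p under 0.05, 3 of the 15 were higher and 3 lower, against 11.8% and 10.8% of all tested genes. Adora1 (ENSRNOG00000003442), the adenosine A1 receptor that lowers cAMP in fat cells, held 64.6, 82.0, 97.8, 96.3 and 70.2 CPM in FSH replicates 1 to 5. Degarelix only libraries held 108 CPM at the lowest, 119 at the median and 151 at the highest. Adora1 fell by a log2 change of -0.58 ± 0.12 (edgeR adjusted p = 0.0396) without overlap. Ptger3 (ENSRNOG00000010325), a prostaglandin E2 receptor that also lowers cAMP, held 132, 95.9, 115, 115 and 99.9 CPM in FSH replicates 1 to 5. With degarelix only it held 132 CPM at the lowest, 152 at the median and 180.1 at the highest. The closest libraries were almost level, at 131.8 CPM in FSH replicate 1 and 131.9 CPM in degarelix only replicate 4. Ptger3 fell by a log2 change of -0.47 ± 0.11 (edgeR adjusted p = 0.0448). The call of Adora1 stood only without FSH replicates 3 or 4 or degarelix only replicate 4, and that of Ptger3 only without FSH replicate 4 or degarelix only replicate 4, with an adjusted p up to 0.0965 and 0.11 without one of the others.

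The beta-adrenergic receptor Adrb3 held 299 ± 61.6 CPM with FSH and 288 ± 24.1 CPM with degarelix only. The stimulatory adenosine receptor Adora2a had a log2 change of 0.64 ± 0.20 (edgeR adjusted p = 0.105). The natriuretic peptide receptor Npr1, which raises cyclic GMP, had 0.27 ± 0.12 (edgeR adjusted p = 0.202), and the clearance receptor Npr3 -0.53 ± 0.15 (edgeR adjusted p = 0.081; 0.0417 without FSH replicate 4). Tshr, the thyrotropin receptor, held 221 ± 32.0 CPM with FSH and 233 ± 21.8 CPM with degarelix only. Fshr, the receptor of the infused hormone, and Lhcgr had no count in any library.

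**Figure D5:**
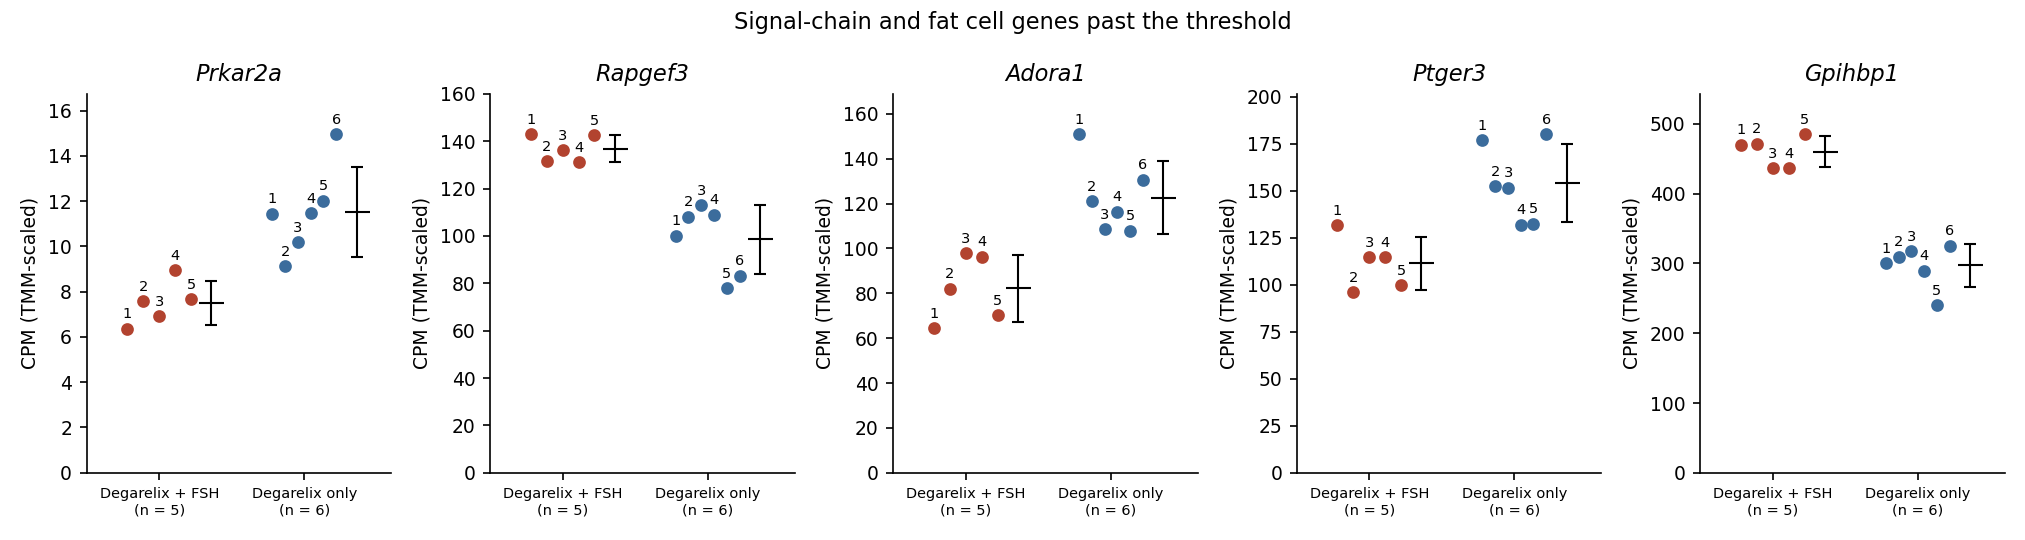
CPM in each library of the 5 listed genes past the threshold. Points are rats labelled by replicate number and bars are mean ± SD. FSH points lie above those of degarelix only for Rapgef3 and Gpihbp1 and below them for Prkar2a, Adora1 and Ptger3.

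The last list holds genes of the fat tissue processes on which GIP acts, not all of them genes of fat cells. Of these, 1 of 20 tested passed and was higher, where 1.21% of all tested genes were called higher. Gpihbp1 (ENSRNOG00000007475), the capillary anchor of lipoprotein lipase, held 470.4, 471, 437, 437 and 485 CPM in FSH replicates 1 to 5. Degarelix only libraries held 239.9 CPM at the lowest, 305 at the median and 325 at the highest. The groups did not overlap, and Gpihbp1 rose by a log2 change of 0.63 ± 0.08 (edgeR adjusted p = 0.00524). Its call stood with any 1 library left out (edgeR adjusted p up to 0.0239). Lpl itself, the lipase that GIP is known to favour, held 13303 ± 2361 CPM with FSH and 16098 ± 2316 CPM with degarelix only. The kinase Akt2, which carries the insulin signal, lay lower without overlap but did not pass (log2 change -0.50 ± 0.13, edgeR adjusted p = 0.062; 0.0351 without FSH replicate 4). The insulin-sensitive glucose carrier Slc2a4 (-0.64 ± 0.27, edgeR adjusted p = 0.191), Dgat2 (-0.55 ± 0.15, edgeR adjusted p = 0.0764; 0.0124 without degarelix only replicate 4) and Acaca (-1.38 ± 0.52, edgeR adjusted p = 0.154) did not pass. Fasn held 5041 ± 3306 CPM with FSH and 11897 ± 7946 CPM with degarelix only.

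Counted once each, the lists hold 88 tested genes, of which 5 passed (5.68%, against 2.27% of all genes tested) and 7 did not overlap between the groups (7.95%, against 4.34%). At an unadjusted p under 0.05 the shares were 27.3% and 22.6%. The lists were chosen with earlier results of these data known, so nothing is read from the higher shares. All 7 tested endothelial markers had estimates above 0, and the part of cell types in the changes of the listed genes was not tested. DESeq2 called 14 of the 82 listed genes tested there, the same 5 included, and 1135 of all 11297 genes tested there. Its adjusted p was 0.0126 for Adcy4, 0.03995 for Prkar2b, 0.0332 for Adora2a, 0.0136 for Npr3, 0.00624 for Akt2 and 0.00704 for Dgat2, none of which passed by edgeR. Without FSH replicates 1, 2 or 5 or degarelix only replicates 1, 5 or 6, 1 of the lists' genes passed. Without FSH replicate 3 or degarelix only replicates 2 or 3, 3 passed, and 9 did without degarelix only replicate 4.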

How the data were processed

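RNA of retroperitoneal white fat was sequenced as strand-marking, paired-end mRNA libraries, per the labels' protocols. The authors deposited raw counts, whole numbers for each gene in each rat, as the values show. STAR, edgeR, DESeq2 and build rn6 are named, without roles or versions, per the submitters' processing notes. The counting program, annotation release and strand setting were not stated in any label or header. Titles gave groups and replicates. 1 gene (Pcmt1) with a letter for a count was left out. Libraries held 13163021 to 23694602 counts, and a count of 0 allows up to 0.127 to 0.228 CPM.

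The fit used edgeR 4.0.16 in R 4.3.3 (TMM, filterByExpr, quasi-likelihood F test with robust estimation, group as the only term, Benjamini-Hochberg over 12846 genes, two-sided). Intervals of counts are exact Poisson at 95%. Levels per coding length were planned and not computed, since no length table was used here. DESeq2 1.42.0 and limma-voom (limma 3.58.1) were alternatives, with other scalings, other filters, each library left out and a replicate block. The edgeR step was tested on simulated data.

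Members and lists were chosen with earlier results of these data known. Of 222 list symbols, 212 matched directly, 3 through a synonym (RefSeq, GRCr8) and 7 not. Genes named were the 4 receptors, list members past 0.05 or at an unadjusted p under 0.05, up to 4 of highest level per list, and the 5 highest and 3 lowest correlations to each receptor whose own mean was at least 1 CPM, over all tested genes with a symbol of their own. Dpp4, some uncounted genes, neighbours and single markers were named for their role. Some results on single listed genes are not reported here.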

Additional observations from a re-analysis of the deposited data

Results flagged for a closer look

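Among 52 groups of libraries of single genes examined for a library far from the others, 2 held one, where chance gives about 1 in 20. Crhr2 in FSH replicate 4 held 53.3 CPM, against 30.1 to 35.1 CPM in the other FSH libraries. Sik1 in FSH replicate 2 held 91.8 CPM, against 55.1 to 62.3 CPM in the other FSH libraries.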

How the results depend on the processing

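The log2 changes of Gipr and Gcgr moved by less than the spread between rats under every alternative run, between 0.82 and 1.11 and between -0.51 and 0.01 with 1 library left out. No log2 change is given for Glp1r or Glp2r under any alternative, since Glp1r had no count and Glp2r had 2 over all libraries. The count of all genes called lay between 30 and 551 with 1 library left out, and was 14 with the replicate number as a block, 1135 with DESeq2, 200 without the low-count filter, and between 271 and 333 under the 6 other alternatives. For the listed genes, 1 to 9 were called with 1 library left out, 1 with the replicate block (Crhr2, none of the 5 of the fit reported, and adjusted p = 0.059 for Gpihbp1) and 14 with DESeq2 (all 5 included), while the other 7 alternatives called 4 or 5. Ptger3 lost its call with library totals only (adjusted p = 0.0551) and without the low-count filter (0.0512). Of the receptors and the listed genes at an unadjusted p under 0.05, Gcgr changed direction (0.01 without degarelix only replicate 5) and no other did. The other named genes have no values here. Same-numbered rats of both groups deviated with a correlation between -0.11 and 0.13, and the titles give no shared animal, so the numbers were not taken as pairs. Of the 8 genes most and least like Gipr, 2 to 6 stayed with 1 library left out, 3 by Spearman correlation and 0 without subtracting group means. For Gcgr these were 0 to 6, 3 and 1. The causes were not tested. Across the 4 scalings, the median over all genes (log2) lay between 0.00 and 0.08. Depth limits the 2 receptors near 0 counts and, at 58 to 211 counts, Gcgr.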
